A study of Homo sapiens with 4 samples.

Results

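Myosin heavy chain mRNAs were examined in RNA immunoprecipitation sequencing (RIP-seq) of ORC1-FLAG. The 9 genes were the non-muscle myosins MYH9, MYH10 and MYH14 and the unconventional myosins MYO1C, MYO1E, MYO5A, MYO6, MYO9B and MYO18A, out of 63677 genes in the table. They were found by symbol in GENCODE v44 and matched to the table by Ensembl identifier, and all 9 were matched and passed the filter on low counts that kept 14645 genes. The genes, and their split into 5 with a coiled-coil tail (MYH9, MYH10, MYH14, MYO5A and MYO18A) and 4 with another tail (MYO1C, MYO1E, MYO6 and MYO9B), were chosen by function and on their ratios of immunoprecipitate to Input, with these values known. Those ratios are therefore given as a description, with no test.

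The series holds 2 immunoprecipitates (IP) and 2 nuclear Inputs from HCT116 cells, a human colorectal carcinoma line. All 4 libraries came from cells transfected for 48 h with the plasmid pcDNA3.1-ORC1-3xFLAG, which expresses tagged ORC1. ORC1 is a subunit of the complex that marks replication origins. The FLAG antibody M2 was used for the IP libraries and none for the Input libraries, and each IP shares its replicate number with an Input. Expression from the plasmid was transient, the extracts were native nuclear lysates, and no library of a control antibody or of untransfected cells was analysed here. From these libraries alone, RNA held by beads or antibody therefore cannot be told apart from RNA held by ORC1-FLAG. For its RIP with an ORC1 antibody, the study reported no detectable RNA with control IgG. It also reported that most RNAs of the FLAG RIP overlapped with those of that RIP.

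The libraries held 9213877 to 27483148 counts, the IP libraries more than the Inputs. Levels are TMM-scaled CPM, that is, counts relative to the library total after a correction (trimmed mean of M values) that centres most genes on no change, so each RNA is read against the rest of its own library. The transfected gene ORC1 was at 333 and 5063 CPM in Input replicates 1 and 2, 15.2-fold higher in replicate 2. It was at 1108 and 18551 CPM in the IP libraries, 16.7-fold higher in replicate 2. The study describes the plasmid insert as codon-optimized, so how much of its RNA was counted at the genomic ORC1 sequence is not known. Cellular and plasmid ORC1 RNA cannot be told apart in these values. Of 7 epithelial markers, 5 were at 5 CPM or more in Input (KRT8, KRT18, KRT19, EPCAM and CDH1), while VIL1 was at 0.157 CPM and CDX1 had no count. None of 10 markers of leukocytes, endothelium and muscle, the muscle heavy chains MYH1, MYH2, MYH6, MYH7 and MYH11 among them, had a mean above 3.02 CPM in Input. Their summed level was 5.56 and 7.53 CPM in the Inputs and 6.44 and 9.16 CPM in the IP libraries.

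Myosins are motors that bind actin filaments with a conserved head, bend at a neck that carries light chains or calmodulin, and end in a tail that differs between classes. In class II, to which MYH9, MYH10 and MYH14 belong, tails pair into a long coiled coil and the rods pack into bipolar filaments that contract the cell cortex and close the cytokinetic furrow. Unconventional myosins use their tails to hold membranes or cargo, and MYO1C also has a form found in the nucleus. A coiled coil is built from repeating residues, rich in glutamate, lysine, arginine, glutamine and leucine, and tolerates almost no proline.

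The coding sequences were compared on these traits over their whole length, not over the tails alone. The longest run of codons without a proline codon was 1090 codons in MYH9, 1089 in MYH10 and 1088 in MYH14, 53.4% to 55.6% of their coding sequences. It was 434 codons in MYO18A and 407 in MYO5A. In the 4 genes with another tail it was 176 codons in MYO6, 175 in MYO9B, 128 in MYO1E and 106 in MYO1C. The median length over 12534 protein-coding genes tested was 71 codons. The run began at codon 262 in MYO1C, 309 in MYO1E and 699 in MYO5A, so in these genes it did not start in the tail. The 5 residues of coiled coils took 49.9% (MYH10) to 50.6% (MYH14) of the codons of the class II genes, and 35.1% (MYO1E) to 44.9% (MYO18A) of the codons of the unconventional myosins, against a median of 33.4%.

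The class II paralogs differed in their use of the glutamate codons GAA and GAG. MYH9 and MYH10 had 78.5% identical residues in the aligned coding sequences and 73.1% identical bases, and MYH10 and MYH14 had 66.8% and 65.0%. Of glutamate codons, 44.2% were GAA in MYH10, 12.2% in MYH9 and 13.2% in MYH14, the rest being GAG, and the median over protein-coding genes was 40.9%. At 245 positions where both MYH9 and MYH10 encode glutamate, 141 had the same codon (57.6%), while MYH9 and MYH14 had the same codon at 186 of 232 (80.2%). Tandem GAA is a feature that the study described in full-length RNAs recovered with ORC1. From crosslink positions and gel shift assays, the study reported that ORC1 does not bind RNA through this repeat. The coding stretches where MYH10 holds the repeat are shown as a sequence feature, beside the aligned stretches of its paralogs. The sequences are the coding strand in frame, from the annotated canonical transcript on GRCh38, with each GAAGAA in capitals.

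The first stretch lies near the start of the rod, in coding exon 23 of MYH10 (chr17:8512487-8512534, minus strand, codons 957 to 972), coding exon 21 of MYH9 (chr22:36300887-36300934, minus strand, codons 919 to 934) and coding exon 23 of MYH14 (chr19:50268284-50268331, plus strand, codons 984 to 999). Each holds 6 glutamate codons, of which 5 are GAA in MYH10 and 0 in MYH9 and MYH14.
MYH10: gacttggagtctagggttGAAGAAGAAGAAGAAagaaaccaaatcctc
MYH9: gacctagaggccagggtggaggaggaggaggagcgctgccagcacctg
MYH14: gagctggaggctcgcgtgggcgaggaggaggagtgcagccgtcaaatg

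The second lies near the end of the rod, in coding exon 41 of MYH10 (chr17:8476965-8477012, minus strand, codons 1915 to 1930), coding exon 39 of MYH9 (chr22:36284182-36284229, minus strand, codons 1877 to 1892) and coding exon 41 of MYH14 (chr19:50309041-50309088, plus strand, codons 1942 to 1957). Each holds 5 glutamate codons, of which 4 are GAA in MYH10, 1 in MYH9 and 0 in MYH14.
MYH10: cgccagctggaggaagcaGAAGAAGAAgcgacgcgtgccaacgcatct
MYH9: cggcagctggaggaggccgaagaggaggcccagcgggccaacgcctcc
MYH14: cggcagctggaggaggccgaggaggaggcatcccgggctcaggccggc

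The reading frame and place of GAAGAAGAA differed among other members. The first such repeat is shown for MYH9 (coding exon 21, chr22:36300851-36300898, minus strand), where GAAGAAGAA is read as consecutive lysine codons (AAG) within the rod, for MYO6 (coding exon 26, chr6:75891241-75891288, plus strand), where it is read as glutamate within the longest proline-free run, and for MYO9B (coding exon 23, chr19:17198217-17198264, plus strand), where it is read as lysine outside that run.
MYH9: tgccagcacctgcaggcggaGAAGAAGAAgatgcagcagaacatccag
MYO6: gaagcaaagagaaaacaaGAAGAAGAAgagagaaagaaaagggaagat
MYO9B: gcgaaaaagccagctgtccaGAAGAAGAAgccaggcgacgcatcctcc

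GAAGAA, counted with overlaps in the coding strand, occurred 34 times in the coding sequence of MYH10, 19 times in MYH9, 15 in MYO5A, 14 in MYO18A, 11 in MYO6 and in MYO9B, 5 in MYH14 and in MYO1E, and 0 times in MYO1C. It was present in 70.5% of the 12534 coding sequences, with a median of 1 match. In MYH10, 17 matches were read as glutamate and 16 as lysine, and 28 of the 34 lay in the proline-free run. In MYH9, 18 of the 19 were read as lysine, and 14 lay in that run. GAAGAAGAA, present in 12.5% of coding sequences, occurred 4 times in MYH10, 3 in MYO9B, 2 in MYH9 and once each in MYO5A and MYO6. The reverse complement TTCTTC, present in 46.0% of coding sequences, occurred at most 3 times in any of the 9 genes (MYH10 and MYO18A).

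**Figure D1:**
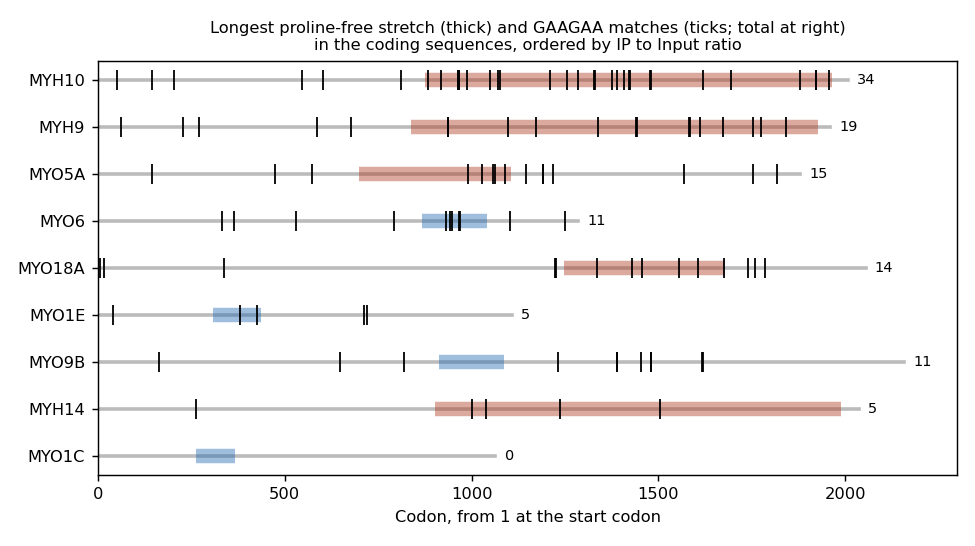
Coding sequences of the 9 genes drawn to scale in codons (x axis, from 1 at the start codon), with the longest proline-free run as a thick bar (red, coiled-coil tail; blue, other tail), each GAAGAA match as a tick and the number of matches at the right. Rows are ordered by the ratio of IP to Input: MYH10, with 34 matches, is at the top and MYO1C, with 0, at the bottom, while MYH14 has a rod of 1088 codons and 5 matches.

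In the nuclear Input the 9 mRNAs spanned a wide range of levels. Per kilobase of canonical transcript, MYH9, the main non-muscle myosin, was highest at 91.0 ± 17.1 CPM (SD, n = 2 libraries), followed by MYO1C at 47.0 ± 2.44 CPM. MYO9B (14.6 ± 2.08), MYH10 (14.4 ± 1.05) and MYO6 (14.1 ± 2.25) were within their spread of each other. MYO5A (8.05 ± 0.517), MYH14 (7.0 ± 2.14) and MYO1E (6.83 ± 2.41) also did not differ beyond their spread. MYO18A had the lowest mean, 4.48 ± 0.603 CPM per kilobase. Its Inputs, 4.05 and 4.91, were below those of MYH14 (5.48 and 8.52) and MYO1E (5.12 and 8.53), although the SD ranges overlapped. Counts behind these values ran from 572 (MYO18A, Input replicate 2) to 52872 (MYH9, IP replicate 1). The labels do not say whether replicates came from separate cultures, so the spread may be technical. The libraries are of bulk nuclei, so more RNA per nucleus and more nuclei holding it cannot be told apart.

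**Figure D2:**
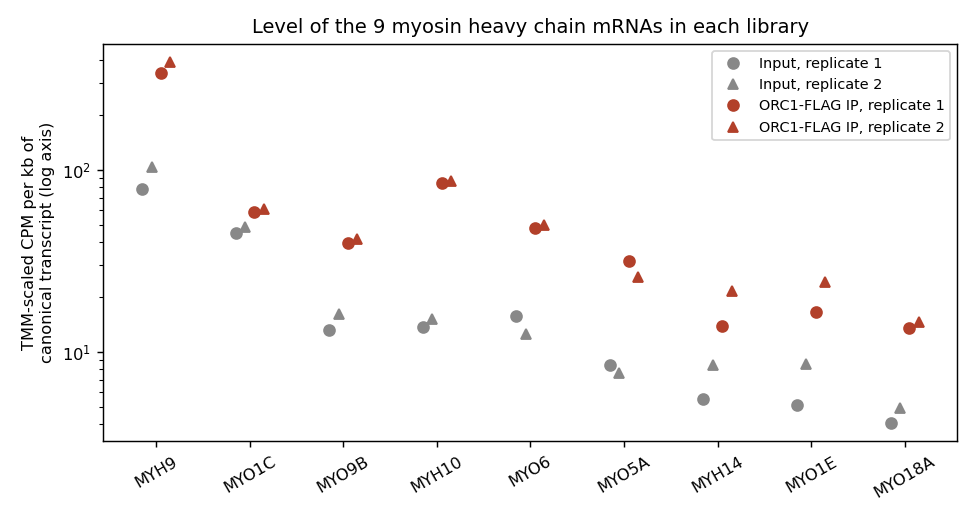
Level of each myosin heavy chain mRNA in the 4 libraries, in CPM per kilobase of canonical transcript on a log axis, with genes ordered by mean Input level (grey, Input; red, IP; circles, replicate 1; triangles, replicate 2). The red points lie above the grey points for all 9 genes, with the smallest gap in MYO1C, the second most abundant in Input.

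The level in IP was above that in Input for all 9 mRNAs, by 2.53-fold to 5.98-fold in 8 of them and by 1.28-fold in MYO1C. In each of the 9 genes both IP libraries were above both Input libraries, as they were in 33.2% of the genes tested. In edgeR's quasi-likelihood test, a gene was called at an adjusted p below 0.05 with a log2 fold change beyond 1 in either direction, and 8 of the 9 were called enriched, all but MYO1C, and 0 were called depleted. Over all genes tested, 10.5% were called enriched and 8.3% depleted. Since the genes were chosen with this contrast in view, nothing is read from their share.

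Among the class II rods, MYH10 (non-muscle myosin IIB, ENSG00000133026, chr17:8474207-8631376, minus strand) had the largest change of the 9. It was at 105 and 117 CPM in Input replicates 1 and 2 and at 656 and 670 CPM in IP, or 6.24-fold and 5.74-fold higher in IP. In the edgeR fit this was 2.58 ± 0.26 on the log2 scale (SE, 2 IP against 2 Input libraries), at the 99.9th percentile of all genes tested. MYH9 (non-muscle myosin IIA, ENSG00000100345, chr22:36281280-36388010, minus strand) was at 588 and 768 CPM in Input and at 2539 and 2911 CPM in IP. The ratios were 4.32-fold and 3.79-fold, and the log2 fold change was 2.01 ± 0.30 (SE).

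MYH14 (non-muscle myosin IIC, ENSG00000105357, chr19:50188186-50310542, plus strand) was the lowest of the rods, although its coding length of 6108 bases and its proline-free run were close to those of MYH9 and MYH10. It was at 37.9 and 58.9 CPM in Input and at 95.9 and 149 CPM in IP. Both replicates gave a 2.53-fold ratio, and the log2 fold change was 1.34 ± 0.33 (SE). In replicate 2 both Input and IP were higher than in replicate 1, with the same ratio between them. The replicate ratios of MYH10, MYH9 and MYH14 did not overlap with each other.

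The other coiled-coil tails lay between MYH9 and MYH14. MYO5A, which carries vesicles and melanosomes along actin (ENSG00000197535, chr15:52307281-52529132, minus strand), was at 102 and 93.2 CPM in Input and at 381 and 311 CPM in IP. Its log2 fold change was 1.82 ± 0.25 (SE). MYO18A, which links Golgi membranes to actin (ENSG00000196535, chr17:29071122-29180398, minus strand), was at 40.4 and 49.0 CPM in Input and at 135 and 145 CPM in IP, with a log2 fold change of 1.64 ± 0.24 (SE).

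Of the members with another tail, MYO6, the motor that moves towards the minus end of actin (ENSG00000196586, chr6:75749201-75919537, plus strand), was highest. It was at 135 and 108 CPM in Input and at 410 and 426 CPM in IP, and its replicate log2 ratios of 1.60 and 1.98 were the furthest apart of the 9. The log2 fold change was 1.78 ± 0.26 (SE). MYO1E, a class I myosin of membranes and podosomes (ENSG00000157483, chr15:59132434-59372871, minus strand), was at 44.3 and 73.8 CPM in Input and at 143 and 209 CPM in IP, with a log2 fold change of 1.58 ± 0.34 (SE). MYO9B, a class IX myosin (ENSG00000099331, chr19:17075777-17214537, plus strand), was at 99.9 and 122 CPM in Input and at 300 and 315 CPM in IP, with a log2 fold change of 1.47 ± 0.25 (SE).

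MYO1C stood apart from the other 8. It is a class I myosin of the plasma membrane with a nuclear form (ENSG00000197879, chr17:1464186-1492686, minus strand). It was at 223 and 240 CPM in Input and at 291 and 301 CPM in IP, or 1.30-fold and 1.26-fold higher. The log2 fold change of 0.35 ± 0.23 (SE) was at the 65th percentile of all genes, and it was -0.25 with scaling by library size alone. MYO1E, of the same class and with a coding length of 3324 bases against 3189 bases in MYO1C, had replicate log2 ratios of 1.68 and 1.5, against 0.38 and 0.33.

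**Figure D3:**
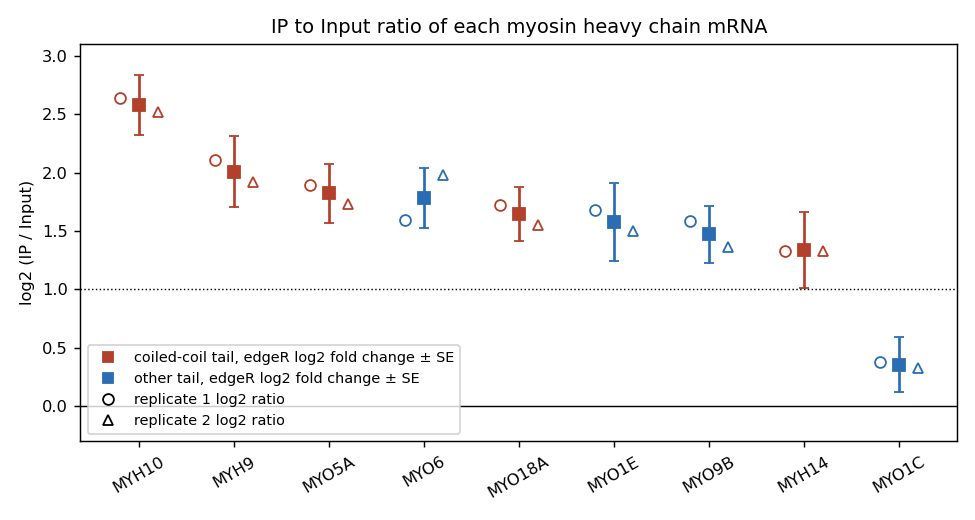
Ratio of IP to Input for each gene on the log2 scale: squares with bars, edgeR log2 fold change ± SE; open circles and triangles, replicates 1 and 2; red, coiled-coil tail; blue, other tail. Values run from 2.58 (MYH10) to 0.35 (MYO1C), MYH14 (red) lies below MYO6, MYO1E and MYO9B (blue), and the dotted line marks the fold change minimum of 1.

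In the order of log2 fold changes, neighbours from MYO5A down to MYO9B (MYO5A, MYO6, MYO18A, MYO1E, MYO9B) had overlapping replicate ratios. MYH10 and MYH9 differed by 0.57 and MYH14 and MYO1C by 0.98 on the log2 scale, and both pairs had ratios that did not overlap. MYH9 and MYO5A (0.18), and MYO9B and MYH14 (0.13), also did not overlap, with a combined SE of 0.40 and 0.41. This SE comes from a fit that ignores the pairing by replicate and takes both genes as independent. It therefore does not measure the spread of a difference between replicate ratios. With so few ratios per gene, the order within these pairs is not settled. In 7 of the 9 genes the ratio was higher in replicate 1, the replicate with the lower ORC1 CPM, and no gene differed by more than 0.38 between replicates. The same share over all genes was not counted, so nothing is read from the 7. Any part of the ORC1 level in these ratios was not tested.

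Coiled-coil tails and other tails were not separated by their ratios. The median log2 fold change was 1.82 over the 5 coiled-coil members and 1.52 over the other 4, a difference of 0.30, which was 0.30 in replicate 1 and in replicate 2. The groups overlapped, since MYH14 lay below MYO6, MYO1E and MYO9B. Leaving out IP replicate 1 gave a difference of 0.042 and leaving out Input replicate 2 gave 0.16, whereas omission of Input replicate 1 gave 0.53 and of IP replicate 2 gave 0.55. Each of these fits leaves an IP or Input without its same-numbered partner.

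Scaling set the size of all these changes. With library size alone, log2 fold changes of all genes moved by a median of -0.60, and 5 members (MYH9, MYH10, MYO5A, MYO6 and MYO18A) were called enriched, against 2.59% of all genes. MYH14 (0.75), MYO1E (0.98) and MYO9B (0.87) were then below the fold change minimum. Upper-quartile scaling moved all genes by -0.17, and MYH14, at 1.17, was no longer called.

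Longer coding sequences had higher ratios across all genes. The median log2 fold change rose from -0.81 in the shortest to 1.07 in the longest decile of coding length, which spans 3612 to 107973 bases and holds 7 of the 9 genes. MYO1C and MYO1E are in the decile below, whose median was 0.64. Against the median of its decile, MYH10 was higher by 1.51 on the log2 scale, MYH9 by 0.94, MYO1E by 0.94, MYO5A by 0.76, MYO6 by 0.71, MYO18A by 0.58, MYO9B by 0.40 and MYH14 by 0.27, and MYO1C was at -0.29. Within the 9 genes, log2 fold change and the number of GAAGAA matches had a Spearman coefficient of 0.93, against 0.67 for the proline-free run and 0.08 for coding length. Over 8 other myosin heavy chains with a mean of at least 5 CPM, these coefficients were 0.59, 0.67 and 0.45. Over the 12534 protein-coding genes the order was another, with 0.59 for coding length, 0.51 for GAAGAA matches and 0.37 for the proline-free run, and GAAGAA matches and coding length themselves had a coefficient of 0.54. The values over n = 9 are descriptions of genes that were chosen on these ratios and share the same 4 libraries, and they were computed after the order of the genes had been seen.

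**Figure D4:**
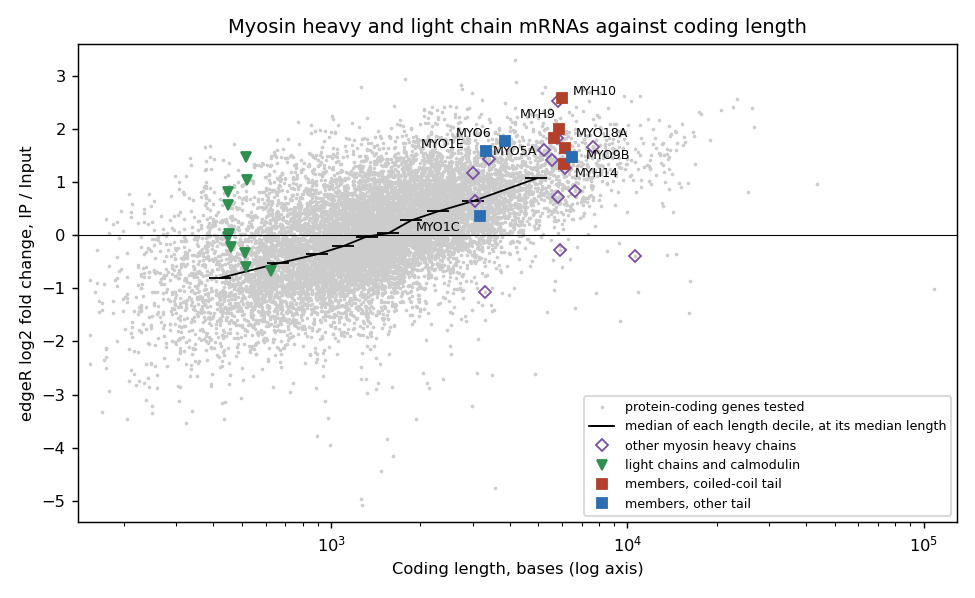
edgeR log2 fold change against coding length (log axis) for the protein-coding genes tested (grey), with the median of each length decile (black), the 9 members (red and blue squares), other myosin heavy chains (open diamonds) and light chains with calmodulin (green). Heavy chains with 3018 to 10590 coding bases lie mostly above 1, and light chains with 447 to 624 coding bases lie between -0.68 and 1.47.

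Several other heavy chains of the family were enriched as well. Of 29 other heavy chain genes, 14 were tested. Of these 14, 8 were called enriched and 0 depleted, beside 10.5% and 8.3% of all genes. The median log2 fold change of the 14 was 1.22, against 0.01 over all genes tested, and their median coding length was 5799 bases. In the longest decile of coding length the median log2 fold change was 1.07, and 46.6% of genes were called enriched. The 14 others with a row had at most 9 counts in any library, and MYO19 had no row under its current identifier. MYH3, the embryonic muscle heavy chain, had 1.15 and 2.05 CPM in Input against 5.57 and 12.5 CPM in IP (log2 fold change 2.52 ± 0.52, SE, edgeR adjusted p = 0.0191), and the log2 fold change was 1.87 without IP replicate 2. MYH15, a muscle-type heavy chain, had 13.6 and 17.7 CPM in Input against 40.1 and 71.9 CPM in IP (1.84 ± 0.34, SE, edgeR adjusted p = 0.0148). The other 6 had log2 fold changes from 1.65 (MYO9A) to 1.18 (MYO1D). With library size alone, 4 of the list were called enriched.

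The light chains, which bind the neck of each motor, had values around those of all genes. They have 447 to 624 coding bases. In the shortest and second shortest deciles of coding length, the median log2 fold changes were -0.81 and -0.53, and 1.44% and 2.55% were called enriched. Of the 10 light chain and calmodulin genes tested of 17, 1 was called enriched and 0 depleted, beside 10.5% and 8.3% of all genes, with a median log2 fold change of -0.01 against 0.01. MYL9, a regulatory light chain of non-muscle and smooth muscle myosin, was at 12 and 8.64 CPM in Input against 35.7 and 21.6 CPM in IP (1.47 ± 0.32, SE, edgeR adjusted p = 0.0226). It lost its call without IP replicate 1 (1.10, edgeR adjusted p = 0.0637) and with library size alone, where 0 of the list were enriched and 2 depleted. MYL6, the essential light chain, was at 0.01 ± 0.27, and the regulatory light chains MYL12A and MYL12B were at -0.33 ± 0.23 and -0.59 ± 0.24 (SE). MYL12A and MYL12B are close copies, and how reads shared between copies were counted is not stated. With the replicate block, and without Input replicate 1 or IP replicate 2, 2 genes of this list were enriched.

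Of the enzymes that set light chain phosphorylation, 16 were tested of 17. In this list 6 were called enriched and 1 depleted, beside 10.5% and 8.3% of all genes, with a median of 0.95. Its median coding length was 4113 bases (range 981 to 7275), which falls in the longest decile. In that decile 46.6% of genes were called enriched and the median log2 fold change was 1.07. PPP1R12A, the large targeting subunit of myosin phosphatase, was enriched by 2.01 ± 0.34 on the log2 scale (SE, edgeR adjusted p = 0.0132), and CIT, the citron kinase of the cytokinetic ring, 1.96 ± 0.24 (SE, edgeR adjusted p = 0.0105). PPP1CB, the catalytic subunit of the same phosphatase, was depleted at -1.51 ± 0.29 (SE, edgeR adjusted p = 0.0168), from 129 and 84.2 CPM in Input to 42.3 and 32.3 CPM in IP. Coding lengths were 3090 bases in PPP1R12A, 6207 in CIT and 981 in PPP1CB.

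Of the 26 actin filament partners, all tested, 11 were called enriched and 1 depleted, beside 10.5% and 8.3% of all genes. The median log2 fold change was 1.32, and the replicate block called 17 enriched. Coding lengths ran from 303 to 7941 bases, with a median of 1704. In the length decile that holds 1704 bases, 10.4% of genes were called enriched and the median was 0.28. IQGAP1, a scaffold of cortical actin, was at 2.21 ± 0.29, and TLN1, which links integrins to actin, at 2.19 ± 0.29 (SE, edgeR adjusted p = 0.0105 for both). S100A4, a small calcium-binding protein that takes MYH9 filaments apart, was depleted at -1.98 ± 0.26 (SE, edgeR adjusted p = 0.0105), from 92.3 and 67.6 CPM in Input to 22.3 and 18.3 CPM in IP. The actins themselves were near 0, ACTB at 0.40 ± 0.30 and ACTG1 at 0.23 ± 0.32 (SE), and both have many processed copies. Only 4 of the list were enriched with library size alone.

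Of 17 cargo adaptors, 5 were called enriched and 2 depleted, beside 10.5% and 8.3% of all genes, with a median of 0.50. Coding lengths ran from 600 to 5967 bases, with a median of 1536. In the length decile that holds 1536 bases, 6.62% of genes were called enriched and the median was 0.04. TAX1BP1, an adaptor of MYO6, was at 1.5 ± 0.37 (SE, edgeR adjusted p = 0.0313) and EXPH5, an effector of RAB27, at 1.38 ± 0.24 (SE, edgeR adjusted p = 0.0133). RAB11A, a GTPase of recycling vesicles that carry class V myosins, was at -1.54 ± 0.24 (SE, edgeR adjusted p = 0.0116), and GOLPH3, the Golgi partner of MYO18A, at -1.21 ± 0.28 (SE, edgeR adjusted p = 0.0267). Without Input replicate 2, 2 adaptors were enriched and TAX1BP1 lost its call (0.92), while without Input replicate 1 it was at 2.16. GOLPH3 lost its call without Input replicate 1 (-0.87) and without IP replicate 2 (-0.95). With library size alone 0 adaptors were enriched.

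**Figure D5:**
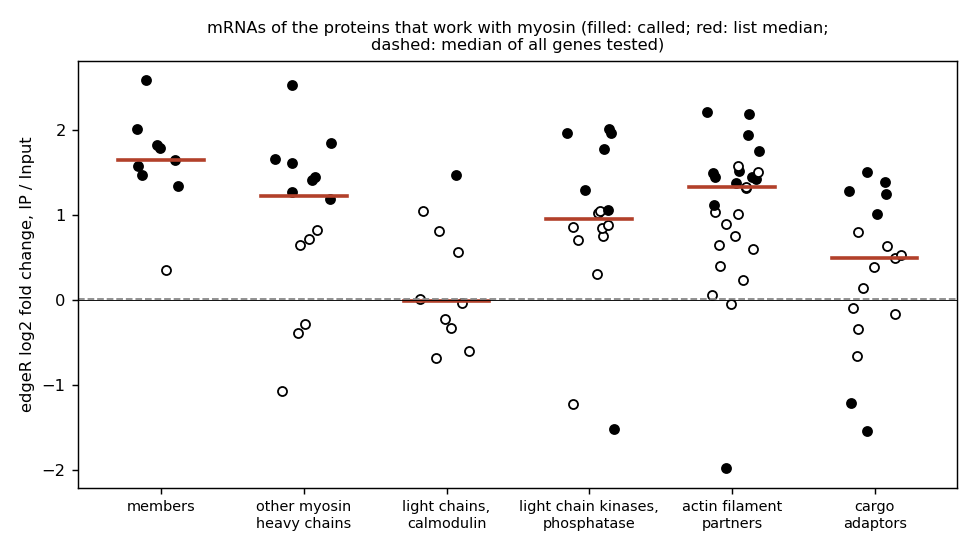
edgeR log2 fold changes of the 9 members and of the 5 gene lists around myosin (points, spread sideways for legibility; filled, called enriched or depleted), with list medians in red and the median of all genes tested dashed. Medians were 1.64 for the members, 1.22 for other heavy chains, -0.01 for light chains, 0.95 for light chain kinases and phosphatase, 1.32 for actin partners and 0.50 for cargo adaptors.

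Genes with the most similar profile were sought by the distance over the 4 libraries of log2 CPM centred on each gene, among 10214 other protein-coding genes of at least 5 CPM. The nearest to MYH9 were CHD6 (distance 0.08, log2 fold change 2.01), CTNNA1 (0.12) and KNTC1 (0.14). The nearest to MYH10 were further away, SPTBN1 at 0.24, SUPT6H at 0.24 and SMARCA1 at 0.35, with log2 fold changes of 2.29 to 2.33 below its own 2.58. The nearest to MYO1C were FKBP10, DTX2 and APBB1, with distances of 0.02 to 0.04.

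Reads of these genes could be told apart from those of related genes over nearly all of each transcript. Of words of 50 bases in the canonical transcript, 0 occurred in a transcript of another gene for MYH10, MYO1E, MYO9B and MYO18A. The share was 0.621% for MYH9 and 0.0728% for MYH14, each with 1 other gene, and at most 0.444% for the rest (MYO6). The longest identical run between coding sequences of the class II paralogs was 40 bases (MYH9 and MYH14). Exons of other genes on the opposite strand covered at most 4.4% of the exonic bases of a member (MYH14), by a lncRNA with 0 counts in all 4 libraries. Whether the counting used strand is not stated.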

How the data were processed

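ORC1-FLAG RIP-seq and nuclear Input libraries were analysed, 2 of each. The deposited values are raw read counts per gene, made by the authors with Trimmomatic, STAR and featureCounts on hg19 with Ensembl genes, leaving out GL contigs. Libraries were made with a stranded total RNA kit. The annotation release and the strand and multi-mapping settings of the counting are not given in the sources used here. Identifiers were joined to GENCODE v44 (GRCh38), which gave all coordinates, lengths and sequences. It matched 14265 of the 14645 genes tested.

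edgeR 4.0.16 (R 4.3.3) was used with TMM scaling, filterByExpr, group as the only term and the quasi-likelihood test with Benjamini-Hochberg adjustment over all genes tested. SE was taken as log2 fold change over the root of its F value. Replicate log2 ratios used CPM with a pseudocount of 0.5. Per-kilobase values used canonical transcript length, coding length excludes the stop codon, and paralogs were aligned as translated codons. Scripts were tested on simulated counts of 14645 genes, of which 200 were changed by 2 on the log2 scale. The main fit called 66% of these, with 12 false calls, so a gene that was not called may still differ. Recovery was 71% with the replicate block, 70% with DESeq2 and 65% with limma voom, with 32, 23 and 14 false calls.

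The labels number each IP and Input by the same RIP replicate, and deviations of same-numbered libraries correlated (Pearson r = 0.645), so the replicate block was an alternative. DESeq2 1.42.0, limma voom 3.58.1, 3 other scalings, 2 other filters and omission of each library were the rest.

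The members and gene lists were chosen with earlier results of these data known. Named genes were the 9 members, ORC1, the 2 called enriched and 2 called depleted genes of each list with the largest change and a mean of at least 5 CPM, and the 3 genes nearest in profile to MYH9, MYH10 and MYO1C. Further genes of these lists (MYL6, MYL12A, MYL12B, ACTB, ACTG1, MYO9A and MYO1D) were named after their values were seen.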

Additional observations from a re-analysis of the deposited data

How the results depend on the processing

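No result turned direction among the called members and the 13 list genes named by rule. MYO1C, which was not called, went from 0.35 to -0.25 with library size alone. The further list genes named after their values were seen were not followed across these fits. The count of members called enriched was 8 in all fits but those with upper-quartile scaling (7) and library size alone (5). Scaling by library size alone called 380 genes enriched and 3257 depleted in all, and 12 enriched and 7 depleted in the 5 lists together, in place of 1542 and 1215, and of 31 and 4. Of all calls, 10.4% were then enriched in place of 55.9%, and 41.2% with upper-quartile scaling. Without Input replicate 2 this share was 43.9%. The replicate block called 1960 genes enriched and 1957 depleted and changed no call of the 9 members or of the 13 genes named by rule from the 5 lists. Leaving out 1 library each gave 1291 to 1936 enriched and 846 to 1801 depleted genes, and 29 to 37 enriched and 3 to 4 depleted in the lists.

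The difference of medians between coiled-coil and other tails was 0.29 with RLE size factors, library size alone and DESeq2, 0.30 with upper-quartile scaling, 0.27 with no count filter, 0.28 with limma voom and with the block, and 0.33 with MYO6 counted as a coiled-coil tail. Leaving out 1 library gave 0.042 to 0.55, while the difference was 0.30 within each replicate. Each such fit leaves an IP or Input without its same-numbered partner, so it cannot show how far the size rests on single libraries. The cause was not tested. A pseudocount of 2 in place of 0.5 CPM left 16 of 18 replicate ratios within 1 SD.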

Other observations

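Long coding sequences outside the 9 genes were compared by their proline-free run, with bounds chosen after the data were seen. In the longest decile of coding length, 59 genes with a run of over 300 codons had a median log2 fold change of 1.68 (interquartile range 1.29 to 1.99), and 603 genes with a run of at most 100 codons had a median of 0.86 (0.52 to 1.24). Of the 59, 48 were called enriched (81.4%), and of the 603, 196 (32.5%). The medians were 1.5 and 1.79 in replicates 1 and 2 for the first group and 0.90 and 0.76 for the second. Library size alone called 31 of the 59 and 41 of the 603, and the replicate block 52 and 249. Median coding length was 5613 and 4647 bases, median Input level 32.4 and 43.2 CPM, and the median number of GAAGAA matches 12 and 4. These values moved together and their parts were not tested.

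Of 34 genes tested for kinesin heavy chains, the motors of microtubules, 19 were called enriched and 0 depleted, beside 10.5% and 8.3% of all genes. The median log2 fold change was 1.38 and the median coding length 3239 bases, against 1.64 and 5880 bases over the 9 myosins. In the length decile that holds 3239 bases, 24.1% of genes were called enriched and the median was 0.64.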
